A study of Bos taurus with 20 samples.

Results

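The genes of the mitochondrial respiratory chain and ATP synthase were followed in cattle skin on 2-colour arrays. A probe was taken as a member when its gene name began as those of the subunits do (NDUFA, NDUFB, NDUFC, NDUFS, NDUFV, SDHA to SDHD, UQCR, CYC1, COX4 to COX8, ATP5), or when its description named one of these enzymes. Of 21475 probes, 84 met this rule, 69 by name and 15 by description only, and each stood for a gene of its own. The rule took 81 genes of nuclear DNA and, through their descriptions, 3 genes of mitochondrial DNA (COX1, COX2 and COX3), which are given apart. Sorted by gene name and description, the nuclear members were 36 subunits of complex I, 4 of complex II, 8 of complex III, 14 of complex IV and 15 of complex V. These made 77 in all, with DMAC2L and 3 predicted copies (LOC617191, LOC615540 and LOC517777) beside them. NDUFA4 and NDUFA4L2 stand under complex I by their names only, and the complex to which their proteins belong was not examined.

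The RNA came from biopsies of the horn-forming region of the skull, with epidermis, dermis and the connective tissue beneath, in 4 polled (hornless), 4 scurred (with loose horn rudiments) and 3 horned cattle. The polled animals were 1 male and 3 females, the scurred 3 males and 1 female and the horned 2 males and 1 female. Polled replicate 2 was the only polled male, scurred replicate 2 the only scurred female and horned replicate 2 the only horned female. Polled replicate 3 and scurred replicate 2, both female, also gave control skin, taken from the skull away from the horn site. Of 20 arrays on 5 chips, chips 1 to 4 each joined 1 polled, 1 scurred and 1 horned animal, and chip 5 set horn site against control site, while horned animal 2 served on both chips 2 and 4. Differences below are log2 ratios from the horned animal of the same chip, so those of polled 2, polled 4, scurred 2 and scurred 4 share 1 horned animal. Age and breed are not given in the labels used here.

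The respiratory chain of the inner mitochondrial membrane takes electrons from NADH at complex I and from succinate at complex II, passes them through complex III and cytochrome c to complex IV, and there reduces oxygen. The protons pumped on the way drive ATP synthase, complex V. Most subunits are encoded in the nucleus, a few catalytic ones in mitochondrial DNA, and some subunits of complex IV have separate genes for striated muscle and for other tissues. Skeletal muscle fibres, which can lie beneath the skin, are rich in mitochondria.

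Probes of the complex IV genes on which the isoform comparisons rest are shown here to make clear what each spot binds. The 3 genes of mitochondrial DNA are given by their whole probe of 60 bases. The nuclear isoforms are given by a stretch of 30 bases, with the polyadenylation signal AATAAA in capitals where the probe holds it. Sequences run 5′ to 3′ as the array files give them.
COX1: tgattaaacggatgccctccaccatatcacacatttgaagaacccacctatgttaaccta
COX2: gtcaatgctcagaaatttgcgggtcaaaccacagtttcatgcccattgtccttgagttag
COX3: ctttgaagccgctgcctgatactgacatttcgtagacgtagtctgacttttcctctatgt
COX4I1: agcaccagtgctAATAAAcgcgcagttcac
COX4I2: ctgctgatttggtggcagcgggtctatgtg
COX6A2: tcaaccctctgcccacgggctacgaaaagc
COX7A1: cgaacaggcatcAATAAAtgtgctggtttc
COX7A2: ttgtattagctgccaccAATAAAgcagtct

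The probes of isoforms had little in common. The longest run shared between the probes of COX4I1 and COX4I2 was 5 bases, between COX7A1 and COX7A2 7 bases, and between ATP5MC1 and ATP5MC2 8 bases. A feature that the rule did not use was more frequent in members than in all probes. The letters AATAAA stood in 25 of 81 nuclear member probes (30.9%), against 2536 of 21256 probes of 60 bases (11.9%). Their complement TTTATT stood in 5 member probes (6.17%) and in 831 of all probes (3.91%). A match is a string of letters and not a proven signal.

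Respiratory chain transcripts were well above background in nearly all of this skin. Of 84 members, 80 were well above background in all 11 animals, as were 13348 of all 21475 probes. COX6A2 missed that mark in horned 3 and ATP5MF in polled 3. LOC615540 and LOC517777, predicted copies of a complex I and a complex V gene, were too dim to test, which left 82 members in each comparison. The files call the COX8 probe a heart form, but its accession is listed as COX8A, the widely expressed form, in the RefSeq gene table, and it is called COX8A here.

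Between polled and horned cattle no member passed the test. With limma and Benjamini-Hochberg adjustment over 16309 probes, 0 of 82 members were called (lowest adjusted p 0.536), against 0.00613% of all probes. At an unadjusted p under 0.05 stood 1 member, COX4I1, on the higher side, where 4.69% of all probes stood, and none on the lower side, where 4.48% did. Most members nevertheless lay on 1 side of 0. Of the 77 nuclear subunits 63 lay above 0 and 14 below, with a median of 0.17 on the log2 scale, while 51.9% of all probes lay above 0 and 48.1% below, with a median of 0.01. That balance rested on 1 animal and on the scaling: without polled 4 the median was 0.02 with 40 of 77 above 0, and with arrays centred on their median it was 0.01 with 39 of 77. Without polled 3 the median was 0.35 and without polled 2 it was 0.40. Polled 2 was the only polled male, so leaving it out also changes how the fit separates horn type from sex. Comparisons here rest on 4 polled and 3 horned animals, and the labels do not say how the animals are related.

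The 4 polled animals did not move alike. The median of the 77 subunits stood at 0.26 in polled 1, 0.05 in polled 2, −0.32 in polled 3 and 0.73 in polled 4, each against its horned animal. The number above 0 was 65 in polled 1, 41 in polled 2, 14 in polled 3 and 73 in polled 4. So nearly the whole chain lay above the horned animal in polled 4 and most of it below in polled 3. The SD of these 4 medians (0.44) was larger than the fitted difference. Among scurred animals the medians were 0.24, −0.05, 0.04 and −0.20 in replicates 1 to 4, a narrower range.

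**Figure D1:**
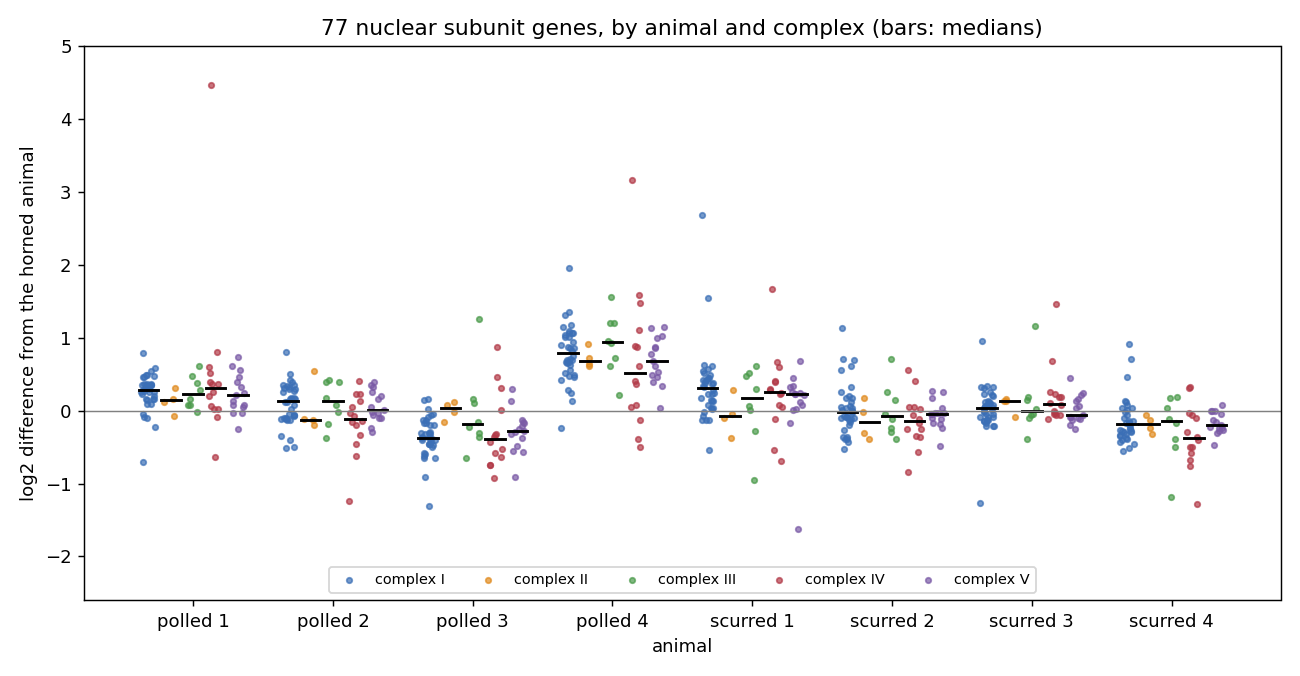
Each point is 1 of 77 nuclear subunit genes, placed by animal (x axis) and by its log2 difference from the horned animal of the same chip (y axis), coloured by complex, with black bars for medians. In polled 4 73 of 77 genes lie above 0 and in polled 3 63 of 77 lie below, and the highest point, at 4.47 in polled 1, is COX6A2.

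Levels of single channels, set against the mean of the 11 animals, placed polled 4 apart from all others. The median deviation of the 77 subunits was 0.74 in polled 4, with 72 genes above that mean. It was lowest in polled 3, at −0.34 with 74 genes below. The other 9 animals, the 3 horned among them, lay between −0.24 and 0.09. The skeletal muscle list was also highest in polled 4, by a median of 4.01 over 21 markers. In polled 3 the muscle list stood at −1.39, and it was lower still in horned 1 (−1.96) and horned 3 (−2.47). The part of muscle content in the respiratory chain levels was not tested, and in whole biopsies fewer cells of a type and less RNA per cell cannot be told apart.

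Complex I, the entry point for NADH, gave 31 of 36 subunits above 0 in polled minus horned, with a median of 0.20. Its highest members were NDUFC1, a small accessory subunit, at 0.54 (SE 0.47, adjusted p 0.76, limma) and NDUFAB1, the mitochondrial acyl carrier protein, at 0.47 (SE 0.31). The core flavoprotein NDUFV1, which binds NADH, stood at 0.25, 0.31, −0.29 and 1.07 in polled 1 to 4, and the fitted difference was 0.31 (SE 0.29, adjusted p 0.77, limma). Polled 3 alone lay below its horned animal. NDUFS1, the largest iron-sulphur subunit, stood at 0.25, 0.27, −0.12 and 0.66, in the same order of animals. The lowest members were NDUFB2 at −0.36 (SE 0.40) and NDUFA4L2, placed here by its name only, at −0.20 (SE 0.63). NDUFB2 took its low value from polled 3, at −1.31, as the other 3 polled animals lay between −0.13 and 0.42. NDUFB10 and NDUFV2, of complex I, were above the horned animal in 4 of 4 polled animals.

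Complex II, succinate dehydrogenase, had 4 of 4 subunits above 0, with a median of 0.17. SDHC, a membrane anchor, stood at 0.12, 0.54, 0.11 and 0.64 in polled 1 to 4, above the horned animal in all of them. Its fitted difference of 0.37 (SE 0.18) did not pass (adjusted p 0.57, limma). The catalytic flavoprotein SDHA stood at 0.17 (SE 0.21), the iron-sulphur subunit SDHB at 0.17 (SE 0.27) and the second anchor SDHD at 0.05 (SE 0.24). In polled 3, where complexes I, III, IV and V had medians below 0, the complex II median was 0.03 against its horned animal. Set against the mean of the 11 animals, however, its median deviation in polled 3 was −0.15, with 4 of 4 subunits below.

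Complex III, the cytochrome bc1 complex, had the highest median, 0.31, with 7 of 8 subunits above 0. UQCRFS1, the Rieske iron-sulphur protein, stood at 0.61, 0.42, 1.26 and 1.55 in polled 1 to 4 and at −0.95, 0.71, 1.15 and −1.19 in scurred 1 to 4. It was thus above the horned animal in all polled animals, while the scurred animals split. The value of polled 3 was set against a low level in horned 3, 9.01, where horned 1 and horned 2 had 10.33 and 10.15. By level polled 3, at 10.16, was the lowest polled animal and lay below horned 1. Its difference of 0.72 (SE 0.52, 95% interval −0.51 to 1.94) did not pass, with an adjusted p of 0.68 (limma). The core protein UQCRC1 was also above 0 in 4 of 4, at 0.08, 0.39, 0.10 and 0.73. CYC1, the cytochrome c1 that hands electrons to cytochrome c, stood at 0.39 (SE 0.27). UQCRB, a small subunit at the quinone site, was the only member of the complex below 0, at −0.16 (SE 0.17).

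Complex IV, cytochrome c oxidase, had the lowest median of the complexes, with 8 of 14 nuclear subunits above 0 and a value of 0.02. COX4I1, the common form of its regulatory subunit 4, stood at 0.26, 0.23, 0.31 and 0.61 in polled 1 to 4 and at 0.08, 0.05, 0.23 and −0.05 in scurred 1 to 4. All polled animals lay above 0.2 and the scurred around 0, apart from scurred 3. The levels on the log2 intensity scale nonetheless overlapped, from 14.50 to 14.89 in horned and from 14.71 to 15.50 in polled animals. The fitted difference of 0.33 (SE 0.14, 95% interval 0.01 to 0.66) had an unadjusted p of 0.0447 and did not pass (adjusted p 0.54, limma). It kept its sign under all 22 alternatives, from 0.09 to 0.44. The alternatives reuse the same animals for a gene with the lowest p, so the kept sign is no added support. COX5A, a nuclear subunit on the matrix side, stood at 0.45 (SE 0.42) and the small subunit COX7A2L, linked to supercomplex assembly, at −0.22 (SE 0.18), below the horned animal in 4 of 4. COX6B2, the testis form of subunit 6B, stood at −0.20 (SE 0.17) and the common COX6B1 at −0.07 (SE 0.21).

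Complex V, ATP synthase, had 13 of 15 subunits above 0 and a median of 0.12. The catalytic beta subunit ATP5F1B stood at 0.39, 0.16, −0.27 and 0.87 in polled 1 to 4 and at 0.32, −0.05, −0.20 and −0.22 in scurred 1 to 4. ATP5F1A, the alpha subunit beside it, had 0.32, 0.20, −0.32 and 0.99 in the polled animals. Both subunits thus ranked the polled animals alike, with polled 4 first and polled 3 last. Their fitted differences were 0.26 (SE 0.25) for ATP5F1B and 0.23 (SE 0.28) for ATP5F1A. The highest member was ATP5F1C, the gamma subunit of the rotor, at 0.41 (SE 0.28). Subunit c of the rotor ring has 3 genes, of which ATP5MC2 stood above 0 in 4 of 4 polled animals (0.08, 0.26, 0.30 and 0.39), while ATP5MC1 ranged from −0.91 in polled 3 to 1.14 in polled 4. ATP5MF at −0.06 (SE 0.09), a dim probe, and ATP5PB at −0.02 (SE 0.37) were lowest. DMAC2L, listed in the files as ATP5S and no subunit, stood at 0.24 (SE 0.22).

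**Figure D2:**
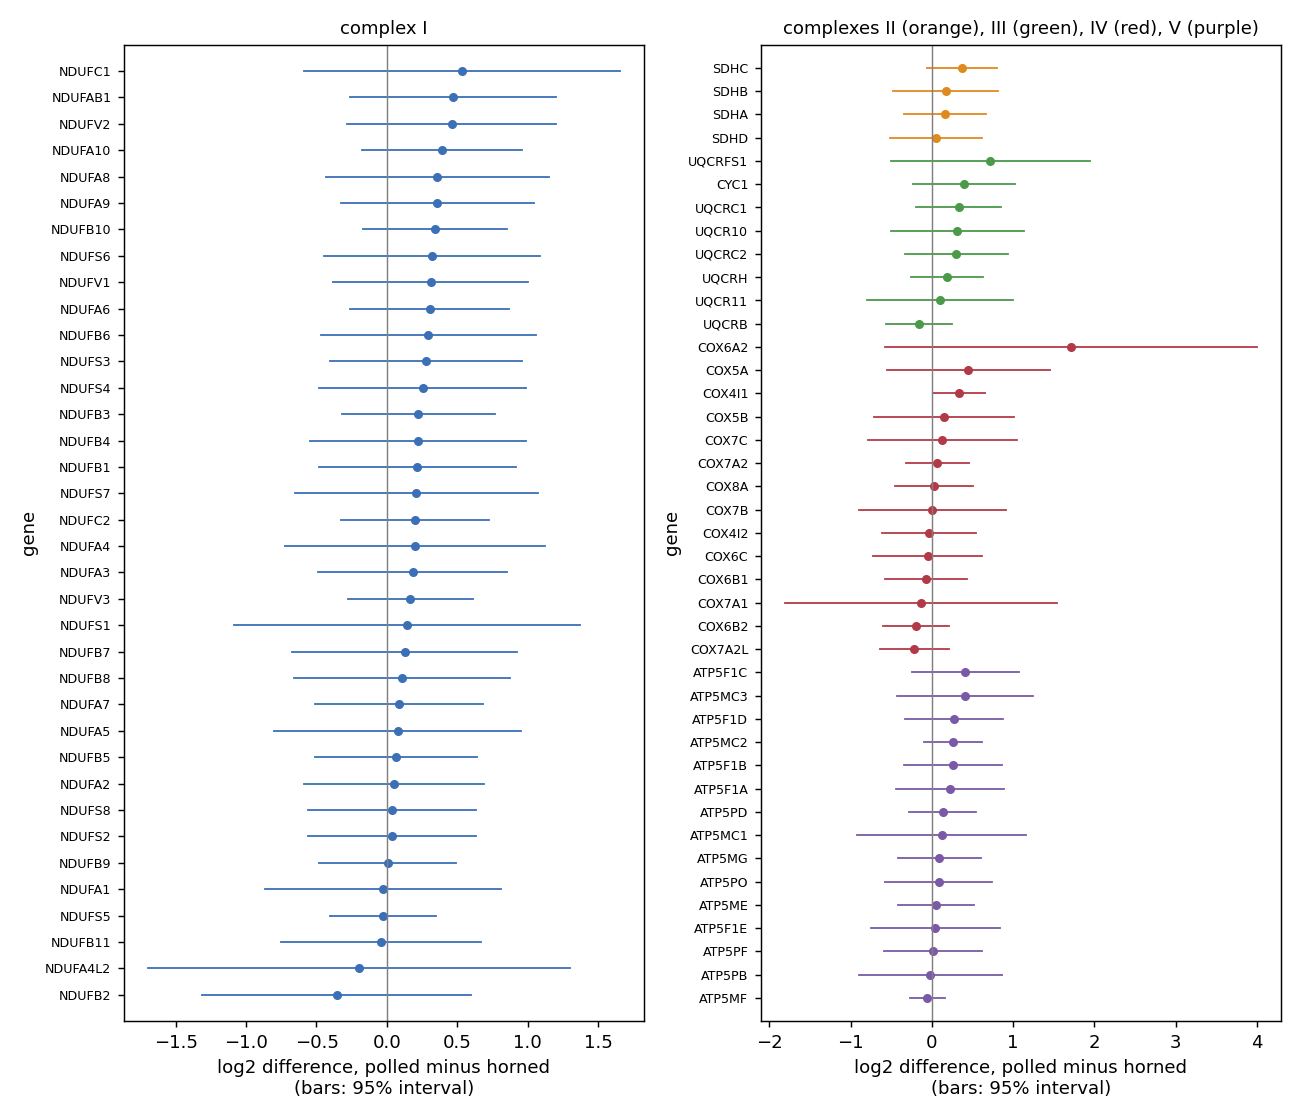
Fitted log2 differences between 4 polled and 3 horned animals (x axis, points) with their 95% intervals (bars) for the 77 nuclear subunit genes (y axis), by complex. The interval of COX4I1 (0.01 to 0.66) is the only one that leaves out 0, and that of COX6A2 is the widest.

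Over all 5 complexes 8 subunits lay above the horned animal in 4 of 4 polled animals and 1 lay below in all of them. Among all probes 14% lay above in all 4 and 13.1% below, so neither count was above the background share. The 8 were NDUFB10, NDUFV2, SDHC, UQCRC1, UQCRFS1, COX4I1, COX6A2 and ATP5MC2. The SD over the 8 polled and scurred differences had a median of 0.40 over the 77 subunits and 0.31 over all probes tested. Probes were not matched for level, and dim ones compress differences, so a spread particular to the members is not shown.

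COX6A2, the heart and skeletal muscle form of subunit 6A, varied most of all members, with an SD of 1.82 over the 8 differences. It stood at 4.47, 0.05, 0.46 and 3.16 in polled 1 to 4 and at 1.66, 0.56, 1.46 and −1.28 in scurred 1 to 4. Polled 1 and polled 4 were far above their horned animals, and polled 2 was close to its own. Polled 1 was set against horned 1, whose level of 6.96 was near the 6.80 of horned 3. Horned 2, the reference on chips 2 and 4, had a higher level, 9.09. The probe was not well above background in horned 3, so the values of polled 3 and scurred 3, which are set against it, and the SD that includes them give only a limit to the size of the difference. The fitted difference of 1.71 (SE 0.97, 95% interval −0.57 to 4.0) did not pass (adjusted p 0.61, limma). COX7A1, the heart and muscle form of subunit 7A, stood at 0.80, −1.24, −0.92 and 1.59 in polled 1 to 4 and at −0.70, −0.85, −0.03 and −0.77 in scurred 1 to 4. It was thus above the horned animal in polled 1 and polled 4 only. COX7A2, the form of other tissues, stood at 0.06, 0.41, −0.53 and 0.07 in polled and at 0.66, 0.40, 0.18 and 0.30 in scurred animals, above 0 in 4 of 4 of the latter.

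By difference from the horned animal, some genes of striated muscle ordered the animals as COX6A2 did and others did not. CKMT2, the mitochondrial creatine kinase of muscle, stood at 3.29, −0.22, 0.07 and 2.70 in polled 1 to 4 and at 0.48, 0.01, 0.91 and −1.21 in scurred 1 to 4. COX8B, a heart and muscle form of subunit 8 that the rule did not take, stood at 3.12, −0.39, 0.32 and 2.77 in polled and at 0.53, 0.37, 0.91 and −1.58 in scurred animals. Polled 1 and polled 4 were highest and scurred 4 lowest for these 2 genes as for COX6A2, each against its own horned animal. Scurred 4 was set against horned 2, which had the highest COX6A2 level of the horned animals. By COX6A2 level scurred 4 (8.025) lay above polled 3 (7.138), and polled 4 (13.07) above polled 1 (11.57). ACTA1, skeletal muscle actin, stood at 6.76, −0.85, 4.40 and 2.26 in polled and at 4.61, 0.53, 5.30 and −4.45 in scurred animals. In these differences polled 3, scurred 1 and scurred 3 lay above polled 4. Their references horned 1 and horned 3 were low in the muscle list (−1.96 and −2.47 against the mean of the 11 animals). Horned 2, the reference of polled 4, stood at 1.16. Against that mean the list stood at 4.01 in polled 4, −1.39 in polled 3, −0.15 in scurred 1 and −0.69 in scurred 3. The part of the references in the unlike order was not tested. Of the skeletal muscle list 22 of 26 markers were on the array and 21 were tested, and 19 lay above 0 in polled minus horned, with a median of 1.18 and none called. Its log2 summed level ran from 14.55 to 18.28 in horned, 15.41 to 20.61 in polled and 15.95 to 18.46 in scurred animals, and between 17 and 22 of the 22 markers were well above background in each animal. ACTA1 was well above background in all 11 animals. The part of muscle fibres in these isoform differences was not tested.

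**Figure D3:**
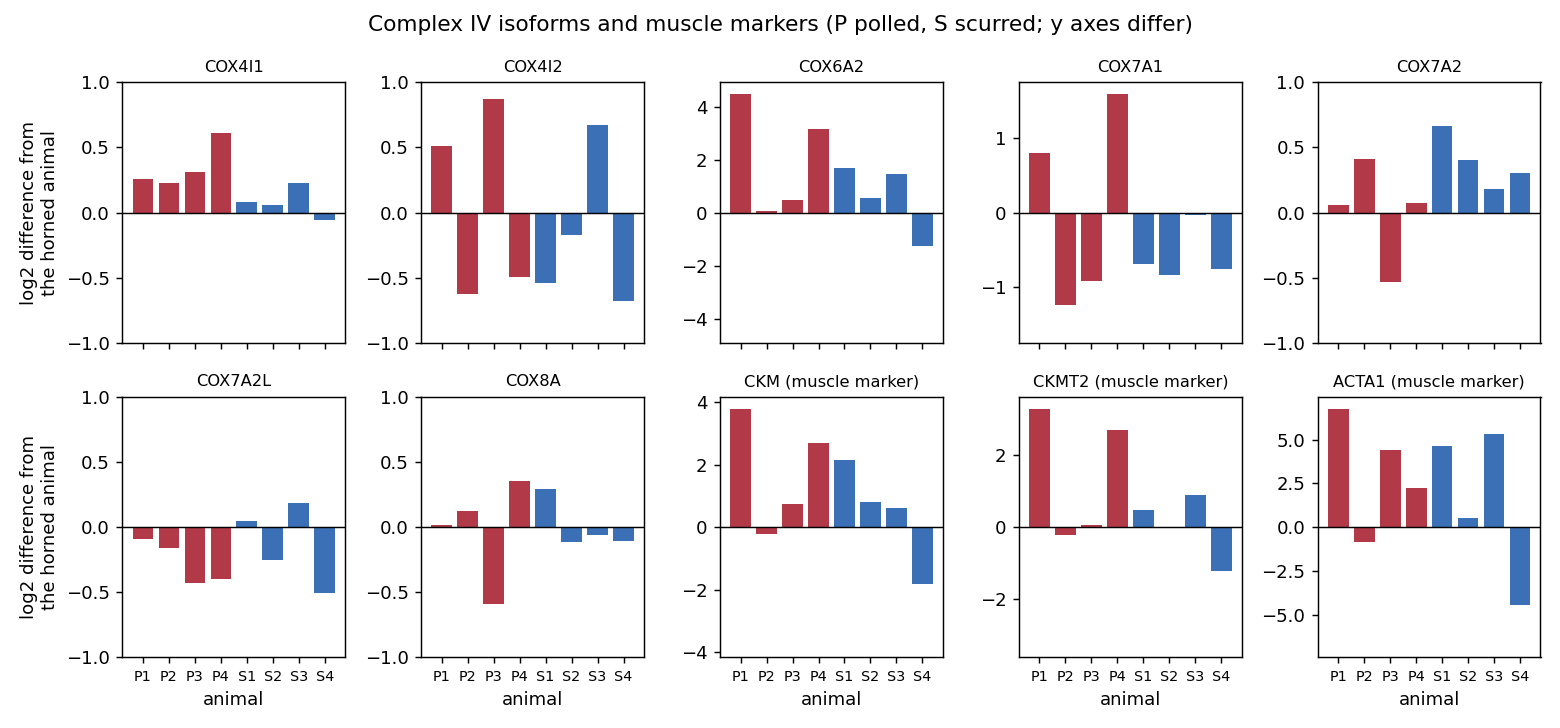
Bars give the log2 difference from the horned animal (y axes, which differ between panels) in polled (P1 to P4) and scurred (S1 to S4) animals for 7 complex IV subunit genes and 3 muscle markers. COX6A2, CKM and CKMT2 are highest in polled 1 and polled 4 and lowest in scurred 4. ACTA1 is higher in polled 3, scurred 1 and scurred 3 than in polled 4, and COX4I1 is above 0 in 7 of 8 animals. The horned animals differ in their muscle list, whose median deviation was −1.96 in horned 1, 1.16 in horned 2 and −2.47 in horned 3.

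Relative to the horned animal, muscle markers and the rest of the chain did not always lie on the same side. In polled 3 ACTA1 stood 4.40 above its horned animal and 19 of 21 muscle markers lay above 0, and 63 of 77 subunits lay below. Against the mean of the 11 animals, however, polled 3 was low in both muscle (−1.39) and subunits (−0.34). Horned 3, against which it is set, had the lowest muscle list (−2.47). In polled 2 all 21 tested muscle markers lay below the horned animal, with a median of −0.83, while 41 of 77 subunits lay above. Against the same mean the muscle list stood at 0.11 in polled 2 and at 1.16 in its horned animal, horned 2. Markers of other cell types moved between the groups as well. In polled minus horned the keratinocyte list had a median of 2.06, with 12 of 13 markers above 0, and the fibroblast and matrix list one of −1.18, with 10 of 10 below. The red cell list had a median of 2.37 in polled minus horned and 2.78 in scurred minus horned, with 3 of 3 above 0 in both. Log2 summed levels of the fibroblast list ran from 16.65 to 18.10 in polled and from 18.48 to 18.68 in horned animals. Those of the keratinocyte list ran from 16.87 to 18.92 and from 15.50 to 16.39, and those of the red cell list from 14.788 to 19.515 and from 13.583 to 14.521. Polled and horned animals thus did not overlap in any of these lists. The part of these cell types in the respiratory chain values was not tested.

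The 3 members from mitochondrial DNA encode the catalytic core of complex IV. COX1 stood at 1.02, 0.16, −0.19 and 1.12 in polled 1 to 4 and at 1.09, 0.21, −0.40 and −0.78 in scurred 1 to 4. COX2 had 0.26, 0.29, −0.11 and 1.07 in the polled and 0.01, 0.28, −0.31 and 0.84 in the scurred animals. Like the nuclear subunits, all 3 lay below the horned animal in polled 3 and above it in the other 3 polled animals. The fitted differences of polled minus horned were 0.43 (SE 0.42) for COX1, 0.33 (SE 0.27) for COX2 and 0.03 (SE 0.26) for COX3, and none passed.

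All 13 mRNAs and both rRNAs of mitochondrial DNA are on the array, and some spread further. Over the 13 mRNAs the polled minus horned median was −0.18, with 9 of 13 below 0 and none called. ND3, a complex I subunit, stood at −0.04, −2.72, −2.58 and −2.0 in polled 1 to 4 and at −2.75, −2.22, −0.14 and −1.71 in scurred 1 to 4. It was more than 1.7 below the horned animal in 6 of 8 animals and near 0 in polled 1 and scurred 3. ATP8 and ND1 also lay low in polled 2, polled 3 and scurred 1, at −1.55, −2.52 and −1.69 for ATP8 and −1.54, −2.01 and −1.72 for ND1. In polled minus horned ND3 stood at −1.88 (SE 0.83, adjusted p 0.56, limma), ATP8 at −1.27 (SE 0.61) and ND1 at −1.10 (SE 0.62). Mitochondrial mRNAs are cut from long common precursors, and yet COX1 and ND3 stood at 1.09 and −2.75 in the same animal, scurred 1. In polled 3 and in scurred 3, both measured against horned 3, 13 of 13 mRNAs lay below 0, and the channel levels of these mRNAs had a median deviation of 0.35 in horned 3.

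**Figure D4:**
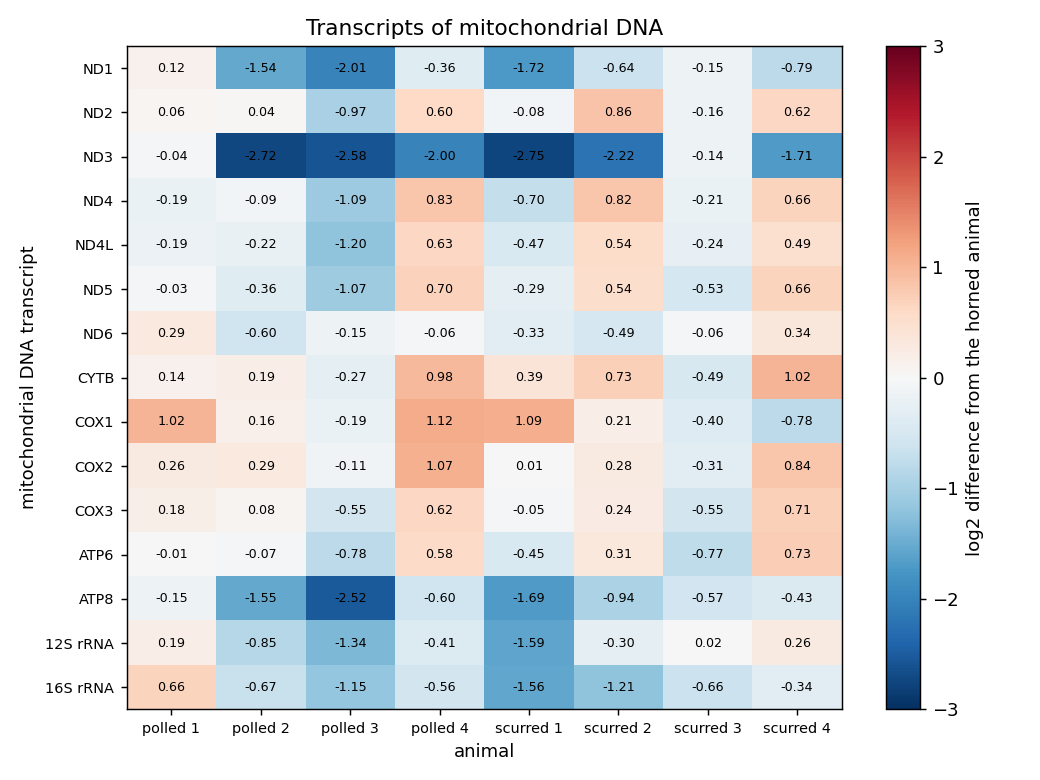
Log2 difference from the horned animal (colour and printed value) of the 13 mRNAs and 2 rRNAs of mitochondrial DNA (rows) in 4 polled and 4 scurred animals (columns). ND3, ATP8 and ND1 hold the lowest values, and the columns of polled 3 and scurred 3 have no mRNA above 0.

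Between scurred and horned cattle the subunits lay on both sides of 0, which depended on the scaling. None of 82 members passed the test in limma (0% of all probes did), and no member had an unadjusted p under 0.05, which 1.56% of probes had on the higher and 2.2% on the lower side. Of 77 subunits 40 lay above 0 and 37 below, with a median of 0.01, against 51.6% of all probes above 0 and 48.4% below. Subunits above the horned animal in all 4 scurred animals were 4 (8.49% of all probes were), and 3 lay below in all 4 (9.59%). COX7A2 was nearest to the threshold, at 0.33 (SE 0.16, unadjusted p 0.0723, adjusted p 1, limma). The widest differences belonged to COX6A2 at 0.94 (SE 0.92) and NDUFA4L2 at 0.81 (SE 0.60). NDUFA4L2, a hypoxia-responsive relative of NDUFA4, stood at 2.68 in scurred 1 and 0.71, −0.14 and 0.04 in scurred 2 to 4, so the value came from 1 animal. ATP5PB, a stalk subunit of ATP synthase, was lowest at −0.52 (SE 0.35), also from scurred 1, at −1.63. The sign of the subunit median turned when animals were left out, from −0.11 without scurred 3 to 0.12 without horned 3. With arrays centred on their median it was −0.12, with 11 of 77 above 0 and 66 below, while the median of all probes was −0.05.

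Between scurred and polled cattle no member was called (0 of 82 in limma, and 0% of all probes), with no unadjusted p under 0.05 among members against 2.93% of probes higher and 3.15% lower. Of 77 subunits 66 lay below 0 in scurred minus polled, with a median of −0.18, while 51.4% of all probes did and 48.6% lay above. On all 4 chips 1 subunit lay above 0 (9.62% of all probes did) and 4 lay below (9.26%). Complex III had 8 of 8 below 0. UQCRC2, a core protein of complex III, was nearest to the threshold at −0.57 (SE 0.26, unadjusted p 0.0637, adjusted p 0.84, limma). By chip the median was −0.04, −0.10, 0.31 and −0.93 on chips 1 to 4, so that chips 3 and 4 lay on opposite sides. Without polled 4 the median was 0.02, with 41 of 77 above 0. Without scurred 2, the only scurred female, it was −0.04, and without polled 2, the only polled male, −0.49. Cell type lists moved in the same comparison, with 10 of 10 fibroblast and matrix markers above 0 (median 1.23), 6 of 6 macrophage markers above 0 on each chip (median 1.04) and 8 of 8 hair follicle markers below 0 (median −1.06). Their part in the subunit values was not tested. These values share their polled and scurred animals with the comparisons against horned cattle.

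Sex, which overlaps with horn type in these animals and was a term of the same fit, called 0 of 82 members (limma; 0.0184% of all probes were called). The median over 77 subunits was −0.02 for males minus females, with 47 below 0 and 30 above, against 49% and 51% of all probes. That tally turned with arrays centred on their median (0.13, with 65 above 0 and 12 below), without chip 2 (0.20, with 66 above) and without polled 2 (0.24, with 65 above). Polled 2, the only polled male, was on chip 2, so both of these fits leave no polled male. COX4I2, the oxygen-sensitive form of subunit 4 known from lung, stood at −0.57 (SE 0.21) with an unadjusted p of 0.0319 and an adjusted p of 1 (limma). It was the only member under 0.05, where 1.23% of all probes stood on the lower side. The difference lay below 0 under all 21 alternatives, from −0.97 to −0.44, which reuse the same animals and so add no support. All 21 muscle markers tested also lay below 0 in males, with a median of −1.49, and their part was not tested.

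At the horn site most of the chain lay below control skin of the same animal. No member passed in limma (0 of 82, and 0% of all probes), but 62 of 77 subunits lay below 0, where 52.4% of all probes did, and 15 lay above, where 47.6% did. The median was −0.13. Below control in both animals were 45 subunits, against 26.5% of all probes, and above control in both were 9, against 24%. The medians of polled 3 and scurred 2 were −0.15 and −0.11, so both animals lay on the same side. In complex I 35 of 36 subunits lay below 0, 25 of them in both animals, while complex II had 2 of 4 on each side, a difference that was not tested. With each array centred on its median the subunit median was −0.47 with 73 of 77 below 0, while the median of all probes was −0.12.

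Unadjusted p under 0.05 at the site was reached by 3 members, all lower, where 2.15% of all probes stood on that side and 2.75% on the higher side. UQCR11, a small subunit of complex III, stood at −0.42 in polled 3 and −0.47 in scurred 2 (mean −0.44, SE 0.10, adjusted p 0.93, limma). ATP5ME, a small membrane subunit of ATP synthase, stood at −0.33 and −0.47 (unadjusted p 0.0358). COX5B, a nuclear subunit of complex IV, stood at −0.29 and −0.38 (unadjusted p 0.0486). These 3 genes were picked by their p, which with 2 animals requires close values, so the likeness of the animals adds nothing to it. COX6A2 went the other way, at 0.39 in polled 3 and 2.09 in scurred 2 (mean 1.24, SE 0.50, adjusted p 0.93, limma). Its channel level at the control site of polled 3 was 6.63 and at that of scurred 2 6.97. Both are near the 6.80 of horned 3, where the probe was not well above background. The sizes of these site differences thus rest on control levels near the floor.

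Markers of several cell types moved at the horn site as well. Of 19 skeletal muscle markers tested, 19 had a mean above 0, with a median of 1.45, and in scurred 2 ACTA1 stood at 5.71 and CKM at 3.17. In polled 3 the list's median was 0.17, with 12 of 19 above 0. Smooth muscle markers lay below control in both animals in 6 of 6 cases (median −0.52), and 12 of 13 keratinocyte markers had a mean below 0 (median −0.34). Macrophage markers lay above 0 in 6 of 6 cases (median 0.86, 5 of them in both animals) and endothelial ones in 5 of 5 (median 0.45). The part of these cell types in the values of the chain was not tested. The 13 mitochondrial mRNAs split by animal, with 11 of 13 below 0 in polled 3 and 12 of 13 above 0 in scurred 2.

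**Figure D5:**
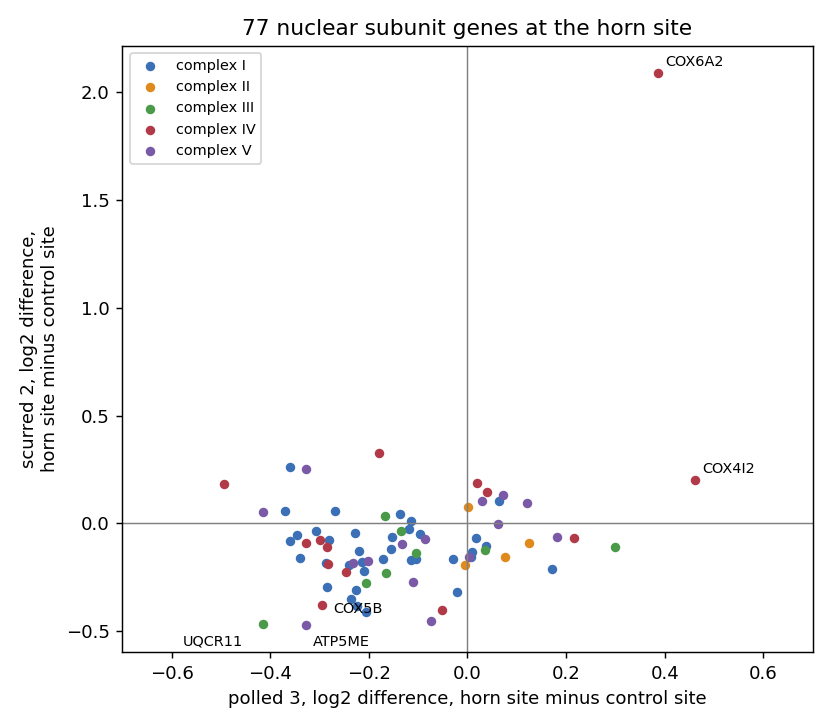
Each point is 1 of 77 nuclear subunit genes, placed by its log2 difference of horn site minus control site in polled 3 (x axis) and in scurred 2 (y axis), coloured by complex. Both differences are below 0 for 45 genes, and COX6A2 lies alone at 0.39 and 2.09.

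Genes that serve the chain were read from lists of their own, and none was called in any comparison in limma. Of all probes, 51.9% lay above 0 in polled minus horned, with a median of 0.01. In polled minus horned the tricarboxylic acid cycle, which supplies the electrons, had 11 of 15 genes above 0 and a median of 0.15, with FH, fumarase, highest at 0.54 (SE 0.25). Carriers and import proteins had 14 of 17 above 0 and a median of 0.12, with SLC25A4, the adenine nucleotide carrier of heart and muscle, highest at 0.87 (SE 0.74). Assembly factors of the complexes (median 0.003, 14 of 22 above 0) and mobile carriers with the entry of electrons (median 0.03, 7 of 11) lay nearer to 0. Regulators of mitochondrial biogenesis had a median of 0.07, with 7 of 12 above 0. PPARGC1A, the coactivator that drives biogenesis, stood at −0.45 (SE 0.47).

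At the horn site 13 of 15 cycle genes, 15 of 17 carriers and import proteins and 16 of 22 assembly factors lay below 0. Their medians were −0.15, −0.16 and −0.07. Of all probes, 52.4% lay below 0, with a median of −0.01, which was −0.12 with arrays centred on their median. Cytochrome c itself, CYCS, stood at −0.47 (SE 0.13, unadjusted p 0.0334) and MDH2, malate dehydrogenase, at −0.47 (SE 0.13, unadjusted p 0.0324). Each had the lowest p of its list, and the lowest adjusted p of either list was 0.93 (limma). Both lay below control in 2 of 2 animals, as 26.5% of all probes did. A low p from 2 animals requires close values, so this adds nothing to it. In scurred minus horned PPARGC1A stood at −1.32 (SE 0.45, unadjusted p 0.0213, adjusted p 1, limma), below the horned animal in 4 of 4. OXA1L, which inserts proteins into the inner membrane, stood at −0.85 (SE 0.19, unadjusted p 0.00333, adjusted p 1, limma), also in 4 of 4. Of all probes, 9.59% lay below the horned animal in all 4 scurred animals, and these genes were picked after their values were seen.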

How the data were processed

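Members and gene lists were chosen with earlier results of these data known, and the list of all mitochondrial DNA transcripts was added after the files were seen. The scans were read with Agilent Feature Extraction 9.5.1, per the submitters' processing notes. The deposited scanner files hold spot and background intensities on a linear scale, and processed intensities from the scanner software, per the file headers. The deposited series-wide values are log10 ratios of the same arrays, 14 columns with a slope of 1 and 6 with a slope of −1 against red over green, and column medians from −0.019 to 0.00929. From 62.24% to 73.75% of spots were well above background. Precision is limited by the 11 animals.

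Background correction of mean intensities used normexp with an offset of 50, followed by within-array loess, in limma 3.58.1 (R 4.3.3, and 1.17.8 of data.table). Spots of a probe were averaged, leaving out at most 19 flagged spots an array. Tests covered probes well above background in 3 or more of 11 animals (16309 probes), or 2 or more of 4 RNAs on chip 5 (16423). Arrays of chips 1 to 4 gave 1 value per animal with a coefficient for dye, then a fit with horn type, sex and a block for animals joined by arrays (5 residual degrees of freedom). Chip 5 tested the mean of 2 animals against 0. Tests were two-sided limma tests, adjusted over all probes, with a threshold of 0.05, and were tested on simulated data. No sample was dropped or imputed.

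The chip number pairs the samples by design, since the animals of a chip were hybridised together. The polled and the scurred animal of 1 chip, each taken as a deviation from its group's mean, had correlations of 0.237, 0.287, 0.422 and −0.082 over probes, and probes are no replicates. Named were members of gene families, core subunits and the extremes of each complex, and genes outside it were chosen after their values were seen. Names follow a RefSeq gene table, which renamed 31 members, and no genome was used. Alternatives were median centring, processed intensities, the deposited ratios, both other filters, no term for sex, no block, and each animal or chip left out. Every gene had 1 probe, so a mean over probes was not run.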

Additional observations from a re-analysis of the deposited data

Results flagged for a closer look

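Each of 110 sets of 4 polled or 4 scurred differences, for the named members and the medians of the complexes, was searched for an animal far from the other 3 by Dixon's ratio at its 95% critical value. Chance marks about 1 in 20 such sets, and 3 were marked here, all in scurred animals. For ATP5MC1, a gene of subunit c of ATP synthase, scurred 1 stood at 0.232 while the other 3 lay between −0.258 and −0.241. For COX8A, scurred 1 stood at 0.294 against −0.11 to −0.061 in the others. For SDHD, a membrane anchor of complex II, scurred 3 stood at 0.158 against −0.387 to −0.324. The causes were not tested.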

How the results depend on the processing

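No member passed the threshold in any comparison under any setting that was run, and the 4316 values of named members under the alternatives kept their calls, although 600 had another sign than the fitted value. The polled minus horned median of the 77 subunits was 0.17 and stayed above 0 under each setting, from 0.0086 with median centring to 0.40 without polled 2, and without a chip or animal it ran from 0.0242 to 0.4044. Scurred minus horned ran from −0.1064 to 0.1228 with an animal or chip left out, scurred minus polled from −0.492 to 0.0408 and male minus female from −0.1648 to 0.2428. Median centring gave −0.1213 for scurred minus horned (11 of 77 above 0, against 40) and 0.1259 for male minus female (65 above 0, against 30). Without the replicate block, with levels by animal, the medians were 0.154, −2e-04, −0.1687 and −0.0417 in that order, and no call of a member changed. At the horn site median centring gave −0.4732 against −0.1348, or −0.3527 relative to all probes, and the single animals gave −0.1536 and −0.109. The number of all probes called changed from 1 to 0 in polled minus horned with median centring or processed intensities and to 3 with the deposited ratios, and from 3 to 6 in male minus female with processed intensities. The cause was not tested. Dim probes (ATP5MF, UQCRB, LOC617191, and COX6A2 in horned 1, horned 3 and both control sites) compress differences, and 2 animals limit the site comparison.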
